A study of Mus musculus with 2 samples.

Results

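TBX5 peaks were described at the genes of the cardiac thin filament, in 5 genomic windows that hold 6 genes: Tnnt2 and Tnni1 together on chromosome 1, Tnni3 on chromosome 7, Tnnc1 on chromosome 14, Tpm1 on chromosome 9 and Actc1 on chromosome 2. A peak was taken when its summit lay in a window, and 23 of the 8849 peaks in the merged TBX5 list did so. The chromatin came from ventricles of wild-type C57BL/6 mice aged 15 weeks, fixed in 2% formaldehyde and immunoprecipitated (ChIP-seq) with an antibody against TBX5. A rabbit IgG served as control antibody in the same tissue, and no file of it was analysed here. Each antibody had 2 biological replicates, but the list is merged. The values below therefore carry no replicate error, and no test between windows was run. Ventricle holds several cell types, and a peak list does not tell in which of them a site was bound.

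The thin filament of the sarcomere is built from actin, with tropomyosin lying along it and a troponin complex at intervals. Troponin T anchors the complex to tropomyosin, troponin I holds back contraction at rest, and troponin C binds calcium and releases that hold. Actc1 encodes cardiac actin, Tpm1 tropomyosin, Tnnt2 cardiac troponin T, Tnni3 cardiac troponin I and Tnnc1 the troponin C of heart and slow muscle. Tnni1 encodes slow skeletal troponin I, which the fetal heart uses before Tnni3 takes over. TBX5 is a transcription factor of the T-box family, which recognises DNA with the core GGTGT, and is required for heart development.

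The promoters of 3 of these genes are shown because they differ in the factor motifs they hold. Each is the 250 bases before the gene's first listed start, written 5′ to 3′ on the gene's own strand, from the RefSeq promoter table of build GRCm38.p6. The peaks are on build mm9, so no peak was placed on these sequences. Capitals mark AGGTGTNA, a T-box element, in Tnni3 and the CArG box of serum response factor in Actc1. In Tnnt2 they mark CATTCC, the motif of TEAD factors. They also mark there a motif of GATA factors, searched as AGATAA and found on the opposite strand.
Tnni3: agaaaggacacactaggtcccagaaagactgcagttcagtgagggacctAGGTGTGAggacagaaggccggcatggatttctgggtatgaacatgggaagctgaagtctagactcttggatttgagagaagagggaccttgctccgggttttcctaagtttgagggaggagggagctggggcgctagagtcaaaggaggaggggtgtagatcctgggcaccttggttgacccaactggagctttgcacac
Tnnt2: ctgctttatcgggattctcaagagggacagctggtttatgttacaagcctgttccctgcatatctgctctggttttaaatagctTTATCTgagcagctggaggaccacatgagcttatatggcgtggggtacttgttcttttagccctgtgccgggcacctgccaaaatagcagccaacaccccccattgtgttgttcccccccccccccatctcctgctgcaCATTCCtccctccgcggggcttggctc
Actc1: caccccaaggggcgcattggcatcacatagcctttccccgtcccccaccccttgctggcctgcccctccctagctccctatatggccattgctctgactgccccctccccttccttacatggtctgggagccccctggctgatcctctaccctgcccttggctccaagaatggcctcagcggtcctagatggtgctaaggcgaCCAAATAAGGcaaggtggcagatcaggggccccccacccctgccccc

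Among the 6 genes, Tnni3 alone held AGGTGTNA, with the letters AGGTGTGA starting 201 bases before the gene's start. Both strands of all 8 promoters listed for the 6 genes were searched, and 2.68% of all 32851 promoters held this element. The shorter GGTGTNA, which lies inside it, was also found in Tnni3 alone (8.61% of all promoters). The core GGTGT was found in 3 of the 6 genes, Tnni1, Tnni3 and Tnnt2, and in 36.2% of all promoters. CATTCC was found in Tnnt2, Tnnc1 and Tpm1 (12.6% of all promoters), AGATAA in Tnnt2 (9.99%) and the CArG box in Actc1 (1.47%). Neither the MEF2 motif (3.2% of all promoters) nor TNAAGTG of NKX2-5 (10.1%) was found in any of the 6. In a wider list of thin filament genes, which includes these 6, 17 of 22 matched the promoter table. Tnni3 was the only gene in it with AGGTGTNA. In that list GGTGT was found in 6 genes, CATTCC in 7, AGATAA in 3 and the CArG box in Actc1, Acta1 and Nebl. The MEF2 and NKX2-5 motifs were found in none. A gene was counted if any of its listed promoters matched, while the shares of all promoters count each promoter by itself. These are matches of letters in a short window and do not show a bound site.

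The Tnni3 window held 3 sites at a fold of 11.1 to 17.9 over the local control level, and no site in the other windows went above 8.38. Across all 23 peaks, 3 (13.0%) reached a fold of 10 or more, against 13.7% of all peaks in the list, a share close to that of the list. All 3 were in the Tnni3 window, and the other windows gave 0 of 19 (95% Wilson interval of the share 0 to 16.8%). That interval holds the list's share of 13.7%, and the split of the windows was not tested. The median fold of the 23 peaks was 4.72, against 5.52 in the list, and 15 of the 23 lay below the list's median (49.9% of all peaks do). The median number of TBX5 fragments at the summit was 30, against 32 in the list. The fold is the authors' value for the TBX5 pileup at the summit over the highest of several local control levels. Fragments and control level were recovered here from the deposited fold and −log10 p.

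**Figure D1:**
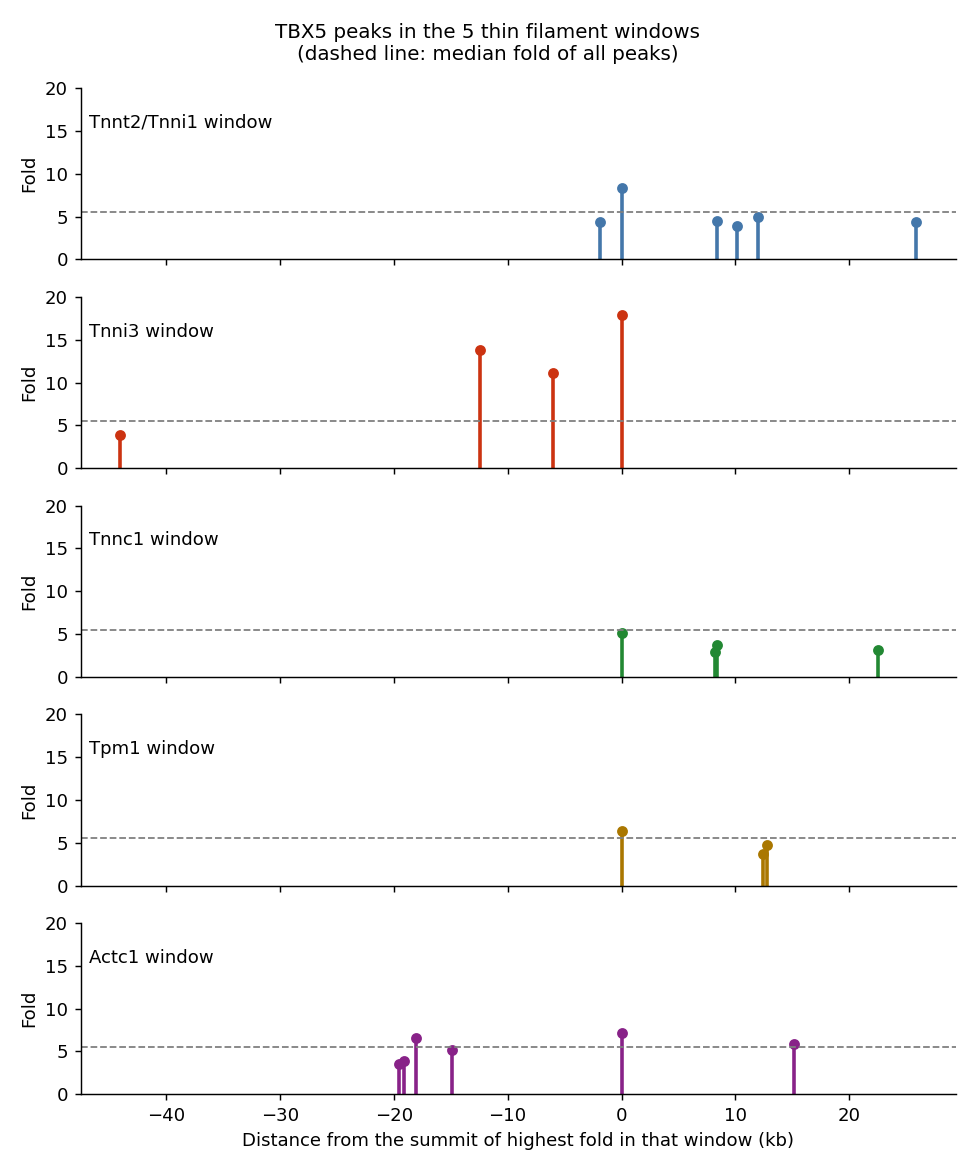
Fold over the local control level (vertical axis, a ratio) of each TBX5 peak against its distance in kb from the summit of highest fold in the same window (horizontal axis), for the 5 windows. The 3 high Tnni3 sites lie within 12.4 kb of each other, and sites in the other windows stay at or below 8.38; the dashed line is the list's median of 5.52.

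The window of Tnni3, the inhibitory subunit of cardiac troponin, had the sites of highest fold. In chromosome order the window's 4 peaks had folds of 3.86, 13.8, 11.1 and 17.9, on 41, 139, 55 and 93 TBX5 fragments. The first is weak and lies 31.6 kb from the next, while the other 3 stand close together, 6.41 and 5.99 kb apart. The site of highest fold was at chr7:4473929-4474493 (mm9, counted from 1), 565 bp wide, with a −log10 q of 67.1. Its 93 fragments (95% Poisson interval 75.1 to 113.9) put the fold between 14.5 and 21.9 when the control level is held fixed. It ranked 248 by fold among the 8849 peaks, in the top 2.80%. The site with the most fragments was at chr7:4461587-4461983, with 139 (116.9 to 164.1) and a −log10 q of 83.0. That −log10 q ranked 169 in the list, and the fragment number ranked 107, in the top 1.21%. Its fold of 13.8 (11.6 to 16.3) was nevertheless lower than that of the first, because its control level was 7 against 3.14. The middle site, at chr7:4468057-4468319, had 55 fragments and a control level of 3, which gives a fold of 11.1 (8.40 to 14.3). Fold intervals overlapped between the 139-fragment site and either of the others, but not between the highest and the middle site.

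The error of the control level is not in these fold intervals. The level of 3.14 at the highest Tnni3 site falls on a step of the average over 10 kb and would then rest on 251 control reads. The levels of 7 and 3 are whole numbers, which the control pileup at the summit, a 1 kb average or a 10 kb average can give. The number of control reads behind them is therefore not known. A whole-number level was found at 17 of the 23 peaks (60.9% of all peaks). By fragments alone, which do not use the control, the 3 sites ranked 107, 1405 and 390 in chromosome order. The Tnnt2/Tnni1 site with 60 fragments ranked 1140, ahead of the middle Tnni3 site.

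The Tnni3 sites were set beside other close runs of peaks. The list held 468 runs of 3 neighbouring peaks that spanned no more than the 12.4 kb of the Tnni3 sites. In 1 of them (0.214%), the Tnni3 run itself, all 3 folds were 10 or more. Windows of 100 kb laid end to end over the autosomes and X held 3 or more such peaks in 13 of 26219 cases (0.0496%). Both counts were chosen after the Tnni3 values had been seen, and the span was set by these same sites, so they describe the site group and test nothing. The 4 Tnni3 peaks held 328 of the 910 summit fragments of all 23 peaks (36.0%). In GRCm38.p6, Tnni3 lies next to Tnnt1, the slow skeletal troponin T gene, on one side and Dnaaf3 on the other. Without an mm9 annotation the sites were not assigned to any of these genes.

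**Figure D2:**
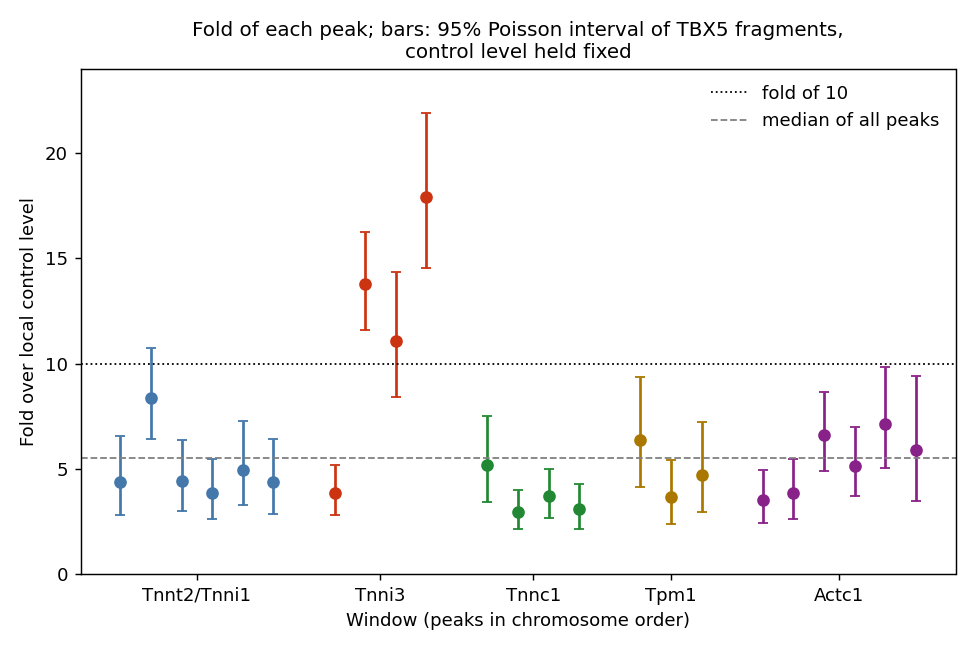
Fold over the local control level of each of the 23 peaks, in chromosome order within each window; bars are 95% Poisson intervals of the TBX5 fragments with the control level held fixed. The interval of the highest Tnni3 site starts at 14.5, above the upper end of the Tnnt2/Tnni1 window's highest site at 10.7. That of the middle Tnni3 site starts at 8.40, below that end.

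Troponin T and slow skeletal troponin I share a window, where 1 site had a higher fold than the other 5. The site at chr1:137732616-137732967 had a fold of 8.38 (6.44 to 10.7), from 60 TBX5 fragments (45.8 to 77.2) and a control level of 4.75, and a −log10 q of 26.4. It was in the top 20.6% of the list by fold and the top 12.9% by fragments. Its 5 neighbours had folds of 4.38, 4.45, 3.84, 4.97 and 4.36 in chromosome order, on 21, 27, 28, 24 and 23 fragments. These 5 all lay below the list's median fold, and their fold intervals overlapped one another. The interval of the strong site also overlapped those of the first (up to 6.56) and the fifth peak (up to 7.27) in chromosome order, and lay above those of the other 3. The weak site at chr1:137730924-137731048 was 1.86 kb before the strong one. The sites at chr1:137741117-137741269, chr1:137742873-137743076 and chr1:137744713-137744837 followed it at 8.39 kb, with 1.72 and 1.85 kb between them. The last, at chr1:137758561-137758758, stood 13.9 kb further on. All 6 lay within 27.7 kb of the 170 kb window, whose first 71.0 kb and last 71.4 kb held no peak. In GRCm38.p6 the gene order is Tnni1, Lad1, Tnnt2, Pkp1, and the peaks were not split between Tnni1 and Tnnt2.

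The window of Actc1, cardiac actin, had 6 peaks, as many as the Tnnt2/Tnni1 window. With peaks within 1 kb merged, Actc1 had 4 and the Tnnt2/Tnni1 window still 6. With peaks at a −log10 q of 5 or more only, both windows held 3, and the Tnni3 window kept its 4. In chromosome order the folds of the 6 Actc1 peaks were 3.51, 3.84, 6.59, 5.15, 7.13 and 5.88, on 30, 28, 49, 38, 35 and 15 fragments. The first 4 stood close together, with gaps of 0.413, 1.02 and 3.20 kb, and the last 2 followed at 14.9 and 15.1 kb. The highest fold was at chr2:113897667-113898178, a peak 512 bp wide with a fold interval of 5.04 to 9.82, from 35 fragments (24.4 to 48.7) and a control level of 3. Its summit lay at 81.3% of its width, the most off-centre of the 23. The most fragments were at chr2:113879843-113880232, with 49 (36.3 to 64.8) over a level of 5 and the window's highest −log10 q, 17.2. The fold of this site was 6.59 (4.92 to 8.66), an interval that overlapped that of the site at 7.13. The sites at chr2:113878480-113878657 and chr2:113878917-113879103 adjoined the 49-fragment site, and chr2:113883054-113883364 closed that group. The site at chr2:113913105-113913321 had 15 fragments (8.40 to 24.7), the fewest of the 23, over the genome background of 1.18 fragments per position. It was the only one of the 23 at that background level. Actc1 lies between Gjd2 and Aqr in GRCm38.p6, and the peaks were not assigned to any of these genes.

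The window of Tnnc1, the calcium-binding subunit, had the lowest folds and the highest control levels by median. Its 4 peaks had folds of 5.17, 2.95, 3.69 and 3.08 in chromosome order, all below the list's median. Their fragments were 25, 40, 41 and 34, so 3 of the 4 were above the list's median of 32. The control levels of those 3 were 10, 8 and 8, in the top 5.53% and 10.6% of the list, against 3 at the first. The highest fold was at chr14:32000019-32000148, on 25 fragments (16.2 to 36.9) with a fold interval of 3.43 to 7.51. The most fragments were at chr14:32008397-32008578, with 41 (29.4 to 55.6) and a −log10 q of 6.92, the highest in this window. The site at chr14:32008158-32008304 lay 0.236 kb before it, the closest pair of summits among the 23. The fourth, at chr14:32022449-32022573, was 14.1 kb further on. Its recovered values had a second solution within the tolerance, and the closer was taken. Tnnc1 lies between Nisch and Sema3g in GRCm38.p6, and the peaks were not assigned to any of these genes.

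The window of Tpm1, tropomyosin, had the fewest peaks and, summed over its peaks, the fewest TBX5 fragments (64). The 3 peaks had folds of 6.36, 3.66 and 4.72, on 23, 22 and 19 fragments over control levels of 2, 4 and 2.38. All 3 fragment numbers were below the list's median. The highest was at chr9:66860389-66860571, with a fold interval of 4.16 to 9.38 and a −log10 q of 8.52. The others, at chr9:66872832-66872957 and chr9:66873184-66873402, formed a pair 0.36 kb apart, 12.4 kb from the first. Their −log10 q of 3.32 and 4.09 were among the lowest of the 23, and the lowest in the list was 1.30. Tpm1 lies between Lactb and Tln2 in GRCm38.p6, and the peaks were not assigned to any of these genes.

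Ordered by their highest fold, the windows ran Tnni3 (17.9), Tnnt2/Tnni1 (8.38), Actc1 (7.13), Tpm1 (6.36) and Tnnc1 (5.17). Of the 10 pairs of these strongest sites, the fold intervals were apart in the 4 pairs with Tnni3 and overlapped in the other 6. The middle Tnni3 site's interval (8.40 to 14.3) overlapped that of the strongest Tnnt2/Tnni1 site (up to 10.7). It also overlapped those at Actc1 (up to 9.82) and Tpm1 (up to 9.38), and lay above that at Tnnc1 (up to 7.51). The interval of the 139-fragment Tnni3 site (from 11.6) lay above all of these. The highest Tnni3 site was 2.14-fold above the Tnnt2/Tnni1 site and 3.47-fold above the Tnnc1 site. Whether such intervals overlap is not a test, and they leave out replicate and control error. Neither the first place of Tnni3 nor the order below it was tested. The strongest site was picked by its own value in each window, so the ratios are a description. In 3 of the 5 windows (Tnni3, Tnnc1 and Actc1) the peak of highest fold was not the peak with most fragments. By most fragments the order was 139 at Tnni3, 60 at Tnnt2/Tnni1, 49 at Actc1, 41 at Tnnc1 and 23 at Tpm1, and the last 2 changed places.

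**Figure D3:**
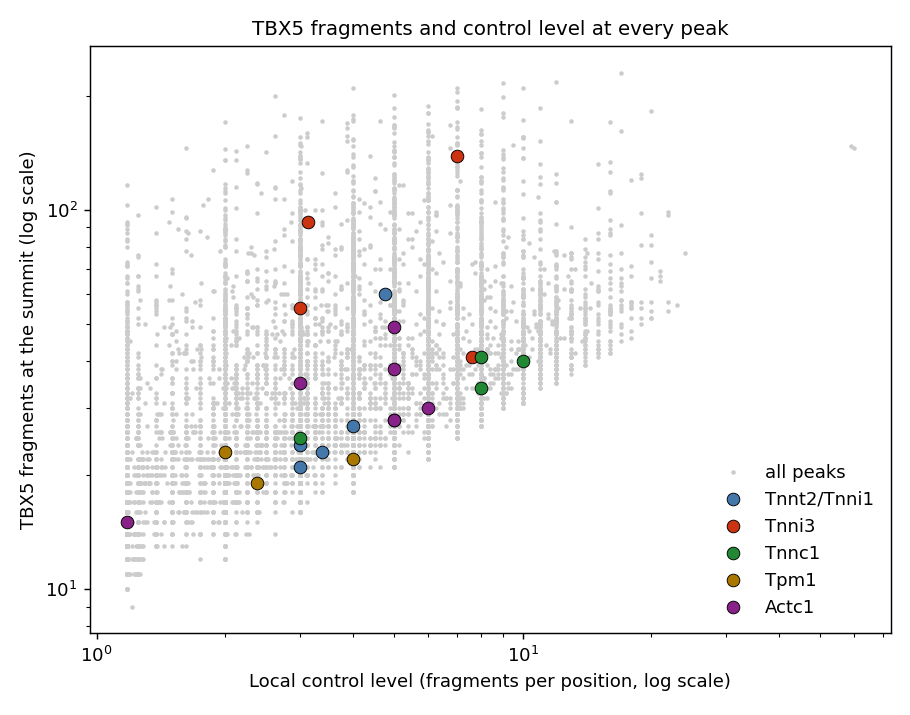
TBX5 fragments at the summit (vertical, log scale) against the local control level in fragments per position (horizontal, log scale) for all 8849 peaks (grey) and the 23 peaks by window. The 139-, 93- and 55-fragment Tnni3 sites lie above the other windows' sites of similar control level, and 3 Tnnc1 sites lie at the high control levels of 8 to 10 with 34 to 41 fragments.

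Control levels differed between the windows too. The median level was 8 at Tnnc1, 5.07 at Tnni3, 5 at Actc1, 3.69 at Tnnt2/Tnni1 and 2.38 at Tpm1, against 3.5 in the list. Of the 23 peaks, 13 lay above the list's median (49.5% of all peaks do) and 5 above a level of 6 (20.2% of all peaks). Those 5 were 3 at Tnnc1 and 2 at Tnni3. The level enters the denominator of the fold. A given number of TBX5 fragments therefore yields a lower fold at the median level of Tnnc1 than at that of Tpm1. This does not hold for every site, since the first Tnnc1 site had a level of 3 and the second Tpm1 site 4. A site over a low level also needs fewer fragments to enter the list. The weak Tnni3 site at chr7:4430075-4430227 and the 41-fragment Tnnc1 site had equal fragments and near-equal levels, 7.63 and 8, with folds of 3.86 and 3.69. A Tnnt2/Tnni1 site and an Actc1 site shared identical values, 28 fragments over a level of 5, as 31 peaks of the list did.

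The peaks in these windows stood closer to each other than peaks in the list do. Of the 23, 17 (73.9%) had another summit within 10 kb, against 32.8% of all peaks, and 15 were in groups of 3 or more, against 12.7%. The groups held 5 peaks at Tnnt2/Tnni1, 4 at Actc1, 3 at Tnni3, 3 at Tnnc1 and 2 at Tpm1. With peaks within 1 kb merged, 63.2% of the peaks in the windows had another summit within 10 kb. No share of all merged peaks is set beside that value. The genes were chosen with earlier results of these data known, so these shares are given without a test. Windows of equal length laid over the autosomes and X held as many peaks in 0.369% of cases for Actc1 (6 in 110 kb) and in 1.1% for Tnnt2/Tnni1 (6 in 170 kb). For Tnni3 and Tnnc1 (4 in 100 kb each) the share was 1.42%, and for Tpm1 (3 in 130 kb) it was 4.56%. Most such windows held no peak at all, with 20.5% of the 100 kb windows holding any. All these window shares use unmerged peaks. With peaks within 1 kb merged, Actc1 had 4 peaks, Tnnc1 3 and Tpm1 2, and no window share is given for those counts. Taking each side of each window by itself, the next peak outside lay from 43.4 kb (Actc1) to 372.4 kb (Tnnt2/Tnni1) beyond the outermost summit.

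Width and height of a peak come from the same pileup and are not independent. Widths ran from 125 to 565 bp with a median of 187 bp, against 202 bp in the list, and 10 of the 23 were above the list's median (49.8% of all peaks). Median widths were 330 bp at Tnni3, 264 bp at Actc1, 183 bp at Tpm1, 175.5 bp at Tnnt2/Tnni1 and 138.5 bp at Tnnc1. The 125 bp peaks, of which there was 1 at Tnnc1 and 2 at Tnnt2/Tnni1, were at the narrowest width in the list.

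The group with most peaks in the list gave a comparison for the Tnni3 sites. It lay on chromosome 11 from 98235651 to 98256720 and held 12 peaks in 21.1 kb. Its highest fold was 13.5 and its most fragments were 102, and 2 of its 12 peaks reached a fold of 10. The Tnni3 group thus held fewer sites but 3 at that fold, with a higher highest fold (17.9) and more fragments (139). The first peak of the Tnni3 window (fold 3.86) lies outside that group. Medians were 4.13 for the fold in the chromosome 11 group and 12.4 over all 4 peaks of the Tnni3 window. This difference was not tested, since peaks of 1 merged list are not replicates.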

How the data were processed

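The submitters' processing notes name mm9, Bowtie2 (2.2.6.2), FastQC (0.10.0) and MACS2 (2.1.1.20160309.0), which also stands in the peak names of the file. Which control the caller used, its settings and how the 2 replicates were merged is not given in the sources used here. In 10 columns the authors' file gives the authors' fold (a ratio), −log10 p, −log10 q and score for each peak. The score deposited by the authors is the whole part of 10 times −log10 q in 8846 peaks.

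Peaks were assigned to windows by summit. TBX5 fragments and control level were solved from fold = (scaled pileup + 1) / (control level + 1) and the upper Poisson tail. A scale of 0.787 and a genome background of 1.18 solved all 8849 peaks, with a largest difference of 0.000136 in −log10 p; 240 peaks had a second solution within 0.005, and the closer was taken. The solving step was checked on simulated data (3599 and 3784 peaks), where 100% came back right. Those peaks were drawn from the same formula, so this does not test whether the formula holds for the authors' file. They also stopped short of the list's highest values, 230 fragments and a control level of 60. Control levels were matched to steps of averages over 1 kb and 10 kb with a fragment length of 125 bp, the narrowest peak. Depth limits each value through its fragments. Intervals of fragments and fold are exact 95% Poisson intervals, cover counting error only and treat reads as independent molecules. All peaks in the windows are reported, with the highest-fold and most-fragment peak of each in full. The genes, windows and lists were chosen with earlier results of these data known. Values were also computed with a stricter q, wider windows, merged peaks, other folds, stitching distances, order measures and motifs. Peak sequences were not used, since no mm9 genome was at hand. Software was matplotlib 3.10.9, pandas 2.3.3, scipy 1.17.1 and numpy 2.4.6 under Python 3.11.15.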

Additional observations from a re-analysis of the deposited data

How the results depend on the processing

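Of 63 alternative values, 50 stayed within their limits (for counts a factor of 1.5, for a fold, share or median its 95% interval) and 13 moved. With peaks at a −log10 q of 5 or more only, 13 of the 23 peaks were left: 3 at Tnnt2/Tnni1, 2 at Tnnc1, 1 at Tpm1 and 3 at Actc1, while Tnni3 had 4 as before. With peaks within 1 kb merged, 19 were left: 6 at Tnnt2/Tnni1, 4 at Tnni3, 3 at Tnnc1, 2 at Tpm1 and 4 at Actc1. Each of these merged counts stayed within the factor of 1.5. The number of peaks at or above a fold of 5 was 10 (43.5%; 58.7% of all peaks) and at or above a fold of 15 it was 1 (4.35%; 4.78% of all peaks). At a stitching distance of 25 kb, 95.7% of the peaks had a neighbour (48.2% of all peaks), and at 5 kb 56.5% did (23.5% of all peaks). Ordering the windows by most fragments moved 2 of them (Tpm1 and Tnnc1), and by median fold it moved 3 (Tnnt2/Tnni1, Actc1 and Tpm1); Tnni3 came first by each measure, highest score included. With GGTGT alone as the T-box motif, 3 genes held it in place of 1. The highest fold of each window was the same with the stricter q, in wider windows and with peaks within 1 kb merged. For the stricter q and for merging this was fixed beforehand. Each of these sites had a −log10 q above 5 and no neighbouring summit within 1 kb. Wider windows, or counting any overlap with a window, can only add peaks. These unchanged values are among the 50 and say little about how firm the results are. The changed counts and shares follow from how each alternative is built. By median fold the Tnnt2/Tnni1 window (4.41), where 1 site had a higher fold than the other 5, came after Actc1 (5.52) and Tpm1 (4.72). No paired analysis was possible because the replicates were merged into 1 list, and leaving out a replicate was not possible for the same reason. Sites below the caller's threshold are not in the list, so weaker binding at these genes was not analysed here.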
